A study of Mus musculus with 5 samples.

Results

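ATP-binding cassette (ABC) transporter genes were described in mouse hearts after ischemia and reperfusion. The genes were taken as every symbol that begins with Abc, a subfamily letter from a to g and a digit, among 22180 genes that had a probe with a single symbol. This gave 48 genes, each with 1 probe: 16 of subfamily A, 9 of B, 10 of C, 3 of D, 1 of E, 3 of F and 6 of G. All hearts came from wild-type C57Bl6J mice at zeitgeber time 12 (hours after lights on). They were perfused on a Langendorff apparatus, which feeds buffer to the isolated heart through the aorta, with 20 min of stabilisation, 20 min without flow and 20 min of reperfusion before freezing. The antagonist group (n = 3) was injected intraperitoneally with a REV-ERB alpha antagonist 4 h and 1 h beforehand, at a stated 10 µM. The target, which Nr1d1 encodes, is a nuclear receptor of the circadian clock that represses transcription. The sham group (n = 2) went through ischemia and reperfusion without the antagonist, so both groups describe reperfused hearts. The compound is not named in the labels, and neither are a vehicle injection, the age or the sex of the mice. Expression values are on the log2 scale, 1 array per heart.

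ABC proteins bind and split ATP, and most use it to carry a substrate across a membrane. Subfamily A moves lipids. Subfamily B includes the drug efflux pump P-glycoprotein and mitochondrial transporters, subfamily C the multidrug resistance proteins and the sulfonylurea receptors, subfamily D the importers of fatty acyl-CoA into peroxisomes, and subfamily G sterol transporters and a drug efflux pump. Members of E and F have no membrane domain and act on ribosomes and translation. In the heart the sulfonylurea receptors are best known, because together with Kir6 pore subunits they form the ATP-sensitive potassium channel, which opens when ATP falls during ischemia.

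The arrays were close to each other, with medians between 3.92 and 3.95 and correlations across probes of 0.986 to 0.990. The 8 cardiomyocyte markers had mean values of 12.1 to 12.2 per array, while the 5 liver markers lay at 3.50 to 3.63 and the 5 lung epithelium markers at 3.18 to 3.28. Sham replicate 1 had the single lowest value of 13 of 38 tested ABC genes (34.2%, against 25.9% of all tested genes), and sham replicate 2 the single highest value of 13 (34.2%, against 18.5%). Antagonist replicate 2 had more signal of atrial, adipocyte and mesothelial markers. Its summed signal on the linear scale was 11519 for the 5 atrial markers, 2409 for the 7 measured adipocyte markers and 257 for the 6 mesothelial markers. On the other 4 arrays the same sums were 3275 to 4266, 1849 to 2025 and 128 to 138. Nppa, the brightest atrial marker, weighs most in the atrial sum. The mean log2 values of these lists were also highest on antagonist replicate 2. Not every marker was: Myl4 was highest on antagonist replicate 1 and Fabp4 on antagonist replicate 3. Many values in the table were exactly equal between arrays, and 25 of the 38 tested ABC genes (65.8%) had fewer than 5 different values, against 73.9% of the 15294 genes tested. For 7 of the 38 (18.4%, against 17% of all) the antagonist arrays held a single value. Genes were tested when their mean over the 5 arrays reached 3.42, the 40th percentile of all probes; 38 ABC genes did and 10 did not.

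By signal, ABC genes of the heart ran from Abcc9 at 10.81 down to Abca16 at 2.02, with a median of 5.72. Each gene is read by different probe sequences, so this order is one of array signal and not of transcript number. Of 47 neighbouring pairs in the order, 15 had ranges over the 5 arrays that did not overlap. As a yardstick, the 1390 olfactory and vomeronasal receptor genes, which belong to other tissues, had a median of 1.93 and a 95th percentile of 3.78. Of the 48 ABC genes, 34 lay above 3.78 and 14 at or below it.

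The sulfonylurea receptor SUR2, encoded by Abcc9 (Entrez Gene 20928), gave the highest signal of the 48, at the 99.4th percentile of all genes. It measured 10.80 and 10.91 in the sham hearts and 10.80, 10.76 and 10.78 in the antagonist hearts, where replicate 1 equals sham replicate 1. Abce1 (24015), the ribosome recycling factor that splits subunits after termination, followed at 9.28, and Abcd3 (19299), the abundant peroxisomal membrane transporter PMP70, at 9.22. The ranges of Abce1 and Abcd3 overlapped, so their order is not settled. Next came Abcf2 at 8.02, Abca8a at 7.82, Abcf1 at 7.68, Abcc1 at 7.30, Abca9 at 7.16, Abca1 at 7.14 and Abcb10 at 7.11.

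Each subfamily had its own spread of levels. The medians were 5.31 for A, 6.41 for B, 5.30 for C, 6.10 for D, 7.68 for F and 3.77 for G. In subfamily A the brightest genes were Abca8a, Abca9 and Abca1, and the dimmest were Abca16 (2.02), Abca13 (2.21), Abca14 (2.57) and Abca15 (2.96). In subfamily B they were Abcb10, Abcb4 (7.07) and Abcb1a (6.97), with Abcb11, the bile salt export pump of the liver, at 2.42. Subfamily C was led by Abcc9, Abcc1 and Abcc8 (6.54) and ended with Abcc2 at 3.17, a bile canalicular pump. Subfamily G was led by Abcg2 (6.65), Abcg1 (5.20) and Abcg4 (3.87), and its dimmest gene was Abcg8 (3.10), which with Abcg5 (3.68) secretes sterols in liver and gut. Among the genes below the level filter were also Abca17, Abcg3 and Abcb5, at 3.30, 3.12 and 2.59.

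**Figure D1:**
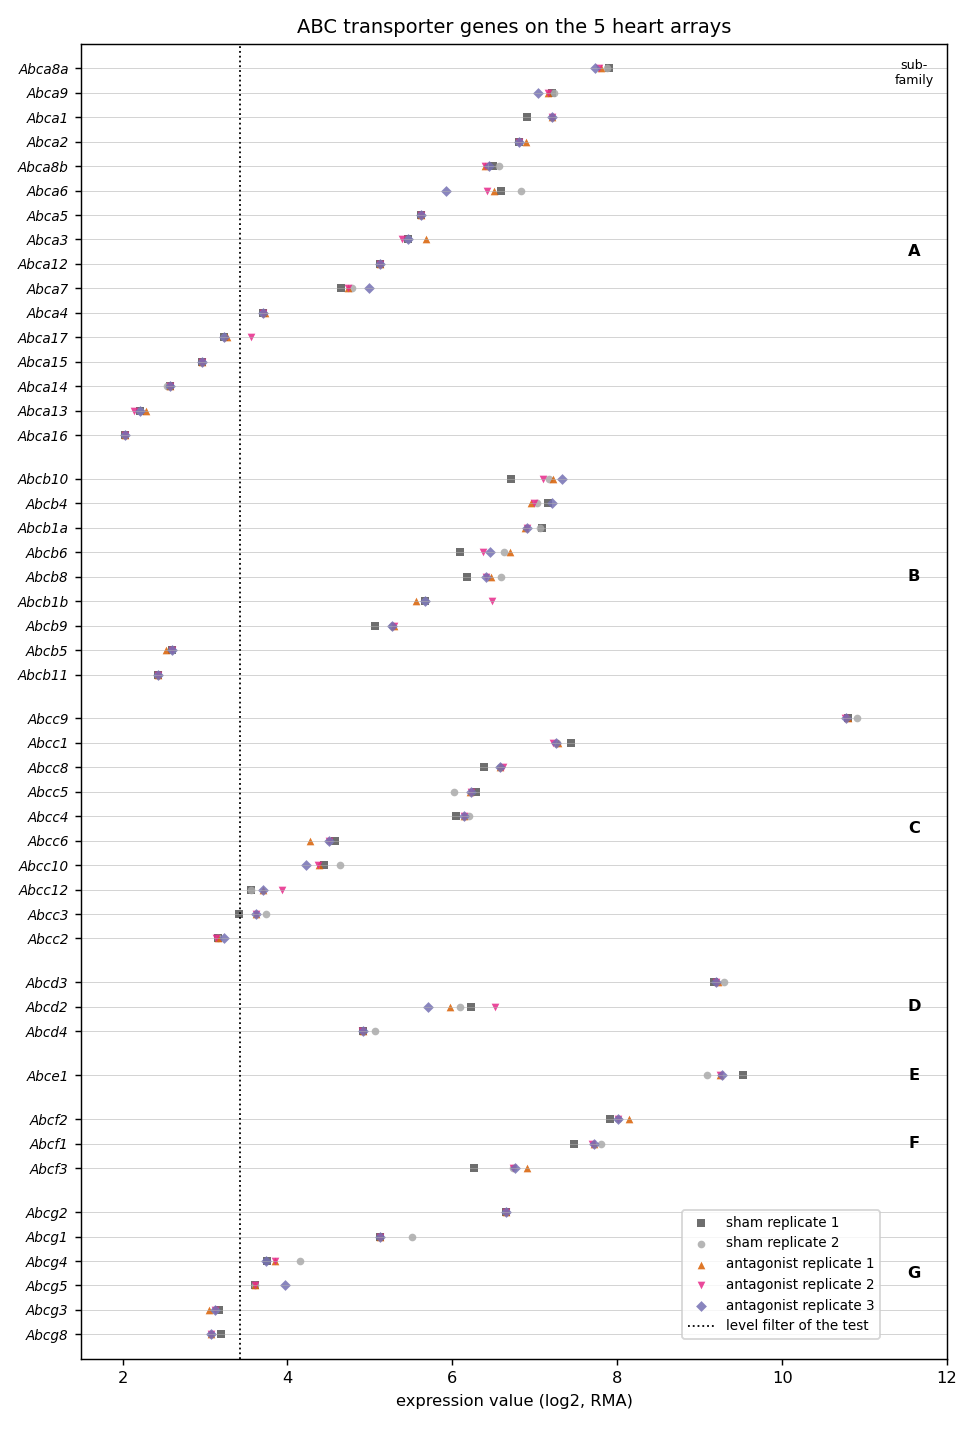
Value on each of the 5 arrays (log2, RMA) for the 48 ABC genes, grouped by subfamily and ordered by mean within it; the dotted line is the level filter at 3.42. Abcc9 stands alone at the right near 10.8, and for several genes the symbols coincide because the arrays hold the same value.

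Antagonist and sham hearts were then set against each other, to ask which ABC genes differ in reperfused tissue after injection of the antagonist. Block of the receptor itself was not measured. Of the 48 genes, 42 differed by less than 0.2 on the log2 scale and 0 by more than 0.5. These counts include the 10 untested genes, and the shares over all genes are not given here. For the 38 tested genes the median size of the difference was 0.10, against 0.07 for all tested genes. With limma, 0 of the 38 tested ABC genes reached an adjusted p under 0.05, as did 0% of the 15294 genes tested (smallest adjusted p 0.60). At an unadjusted p under 0.05 there were 3 (7.89%, against 4.6% of all tested genes), namely Abcb1a, Abca8a and Abca8b. These were lower with the antagonist, where the background was 2.37% lower and 2.23% higher. Of the 38, 19 were higher, 16 lower and 3 without any difference, which are 50%, 42.1% and 7.89%, against 47.7%, 46.3% and 6.03% of all tested genes. Their median difference was 0.0031, beside 0 for all tested genes. The shares of higher and lower genes were thus near those of the whole array.

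For 8 of the 38 tested genes the antagonist arrays lay all above or all below both sham arrays (21.1%, against 12.5% of all tested genes). The 10 untested genes added none, which gives 16.7% of the 48, against 10.7% of all 22180 genes. A value shared between the groups counts as overlap, so the background share moves with ties. When each array was centred on its median, which parts equal values, the share was again 21.1% for the ABC genes but 24.7% for all tested genes. After a second quantile normalization it was 23.7% against 24%. The 6 genes lower in this sense were Abca6, Abca8a, Abca8b, Abca9, Abcb1a and Abcc10, and the 2 higher ones were Abcf3 and Abcc12. The background for these directions was 6.33% and 6.19% of all tested genes, with ties counted as overlap. The background by direction is not given here for the settings that part ties.

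**Figure D2:**
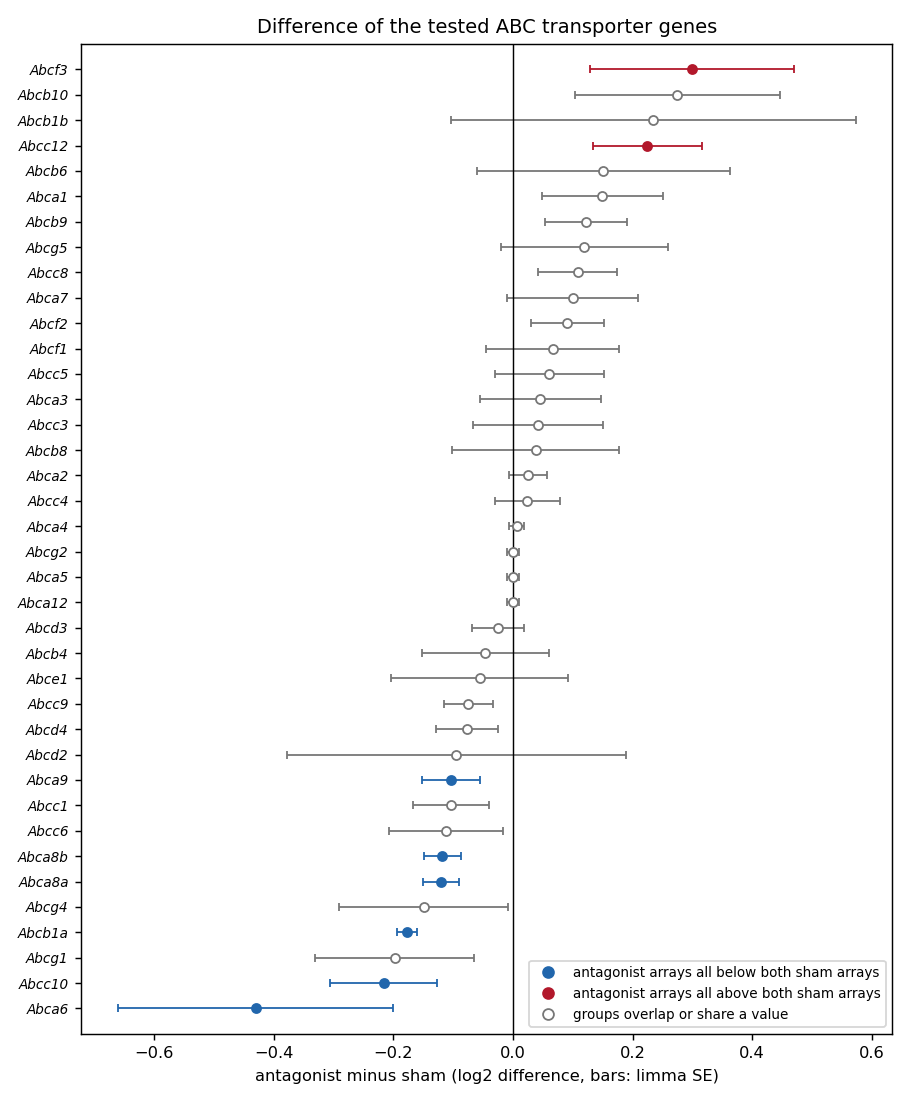
Antagonist minus sham (log2) with limma's standard error for the 38 tested ABC genes, ordered by size; filled symbols are genes whose groups do not overlap. Abca6 has the lowest difference (-0.43) and Abcf3 the highest (0.30), and the narrowest bars among the filled symbols are those of Abcb1a, Abca8a and Abca8b.

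Among the lipid transporters of subfamily A, 4 genes that lie next to each other on chromosome 11 were lower with the antagonist. In the RefSeq gene order of assembly GRCm38.p6 the row runs Abca8b, Abca8a, Abca9, Abca6 and Abca5. These genes encode closely related transporters whose substrates are less well defined than those of Abca1. The row was singled out after the values were seen. Abca8a (Entrez Gene 217258) measured 7.90 and 7.88 in sham and 7.81, 7.77 and 7.73 with the antagonist, a difference of -0.12 ± 0.03 (SE, limma unadjusted p = 0.018, adjusted p = 0.64). Abca8b (27404) measured 6.49 and 6.56 in sham and 6.40, 6.39 and 6.44 with the antagonist, a difference of -0.12 ± 0.03 (limma unadjusted p = 0.023, adjusted p = 0.64). For both, each antagonist value lay below both sham values, with gaps of 0.074 and 0.052 (SD within groups 0.01 and 0.04 for Abca8a, 0.05 and 0.03 for Abca8b, n = 2 and n = 3). Abca9 (217262) measured 7.21 and 7.23 in sham and 7.16, 7.16 and 7.04 with the antagonist, a difference of -0.10 ± 0.05 (limma adjusted p = 0.64). Abca6 (76184) measured 6.59 and 6.84 in sham and 6.50, 6.43 and 5.92 with the antagonist. Its difference of -0.43 ± 0.23 (limma adjusted p = 0.64) was the lowest of the 48 and rested in part on antagonist replicate 3, without which it was -0.25. The fifth gene of the row, Abca5 (217265), had the same value of 5.62 on all 5 arrays. By exact two-sided permutation over 10 divisions of the hearts, p was 0.10 for Abca8a, Abca8b and Abca9, the smallest value possible with these groups, and 0.20 for Abca6.

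The groups of these 4 genes also stayed apart after a second quantile normalization and after median centring. Their sequences are related, and signal shared between their probes was not tested. Of 6 measured fibroblast markers, 0 were higher and 5 lower, with Pdgfra the same on all arrays. Over all tested genes 47.7% were higher and 46.3% lower. The summed signal of the fibroblast markers was 3380 to 3534 in sham and 3051 to 3602 with the antagonist, so these ranges overlapped. Dcn, the brightest of the list, weighs most in this sum. Lum, a matrix proteoglycan gene, differed by -0.39 and Tcf21, a fibroblast transcription factor gene, by -0.12, both without overlap of the groups. The groups of Col3a1 (-0.39), Col1a1 (-0.28) and Dcn (-0.01) overlapped. In tissue, fewer cells of a type and less RNA per cell cannot be told apart, and the part of these markers in the result was not tested.

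RefSeq promoter windows of 300 bases (250 before the annotated start and 50 after it, GRCm38.p6) were on hand for 3 genes of the row and are printed because these genes lay lower together. They come from chr11:109995796-109996095 (Abca8b), chr11:110095888-110096187 (Abca8a) and chr11:110168104-110168403 (Abca9), all on the minus strand, and are written 5′ to 3′ along the gene. Capitals mark matches to the motifs searched: the REV-ERB and ROR element core TAGGTCA, the nuclear receptor core AGGTCA contained in it, the E-box CACGTG, the D-box TTANGTAA, the TATA box TATAAA, the GC box GGGCGG and the CCAAT box, each searched on both strands.
Abca8b: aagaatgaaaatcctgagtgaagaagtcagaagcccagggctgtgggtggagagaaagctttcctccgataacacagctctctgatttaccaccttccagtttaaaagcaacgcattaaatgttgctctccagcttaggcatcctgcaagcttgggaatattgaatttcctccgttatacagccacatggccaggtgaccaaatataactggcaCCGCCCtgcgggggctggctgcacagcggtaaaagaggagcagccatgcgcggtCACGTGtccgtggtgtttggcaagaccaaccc
Abca8a: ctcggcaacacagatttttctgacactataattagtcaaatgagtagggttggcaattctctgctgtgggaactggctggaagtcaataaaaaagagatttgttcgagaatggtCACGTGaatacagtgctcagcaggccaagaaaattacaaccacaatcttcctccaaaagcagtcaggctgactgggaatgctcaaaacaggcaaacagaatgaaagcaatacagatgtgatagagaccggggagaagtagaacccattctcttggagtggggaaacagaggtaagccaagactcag
Abca9: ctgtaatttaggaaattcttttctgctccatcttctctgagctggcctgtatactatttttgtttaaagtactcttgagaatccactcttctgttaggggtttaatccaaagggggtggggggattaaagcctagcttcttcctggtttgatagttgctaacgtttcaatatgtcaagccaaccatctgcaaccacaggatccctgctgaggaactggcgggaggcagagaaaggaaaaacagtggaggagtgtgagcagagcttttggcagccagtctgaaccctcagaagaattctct
Abca8a held the E-box 136 bases before its start and Abca8b held it 18 bases after its start, while Abca9 held 0 of the motifs. Aligned end to end, the 3 windows were identical at 45.9% to 48.5% of positions, and pairs with the windows of Abcb1a and Abcb1b gave 46.4% to 48.1%. The windows within the row were therefore about as alike as windows of the row and of subfamily B.

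Over all ABC genes, 38 of the 48 matched 45 such windows. The E-box was in 6 of the 45 (13.3%), those of Abca1, Abca15, Abca8a, Abca8b, Abcc4 and Abcf1, against 7.15% of all 32851 windows. The core TAGGTCA was in 1 window (2.22%, against 2.61%), that of Abcb11, which gave the same dim value on every array. The shorter AGGTCA was in 7 windows of 5 genes (15.6%, against 16.3%), and the D-box in 0 (against 2.32%). A match describes letters in these windows and does not show a factor at work.

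Among drug efflux pumps the smallest unadjusted p was that of Abcb1a (Entrez Gene 18671), a P-glycoprotein gene of endothelial cells in mouse. Abcb1a measured 7.09 and 7.06 in sham and 6.89, 6.91 and 6.90 with the antagonist. The group values were 7.08 ± 0.02 (SD, n = 2) and 6.90 ± 0.01 (SD, n = 3), and the gap between the groups was 0.152, wider than either spread. The difference was -0.18 ± 0.02 (SE), a fold of 0.885 (limma unadjusted p = 0.00064, adjusted p = 0.60), and the exact two-sided permutation p was 0.10, the smallest possible. With any single array left out the difference stayed between -0.19 and -0.16. Endothelial markers went both ways, 5 higher and 3 lower of 8. Their summed signal was 3097 to 3122 in sham and 2952 to 2983 with the antagonist, groups that do not overlap, while the mean log2 values of the list overlapped (7.98 and 8.14 in sham, 8.09, 8.13 and 8.04 with the antagonist). The junction gene Cdh5, the brightest of the list, weighs most in the sum. It measured 10.16 and 10.09 in sham and 9.90, 9.82 and 9.95 with the antagonist, a difference of -0.23 ± 0.05. The sum therefore does not describe the list as a whole. Flt1, a receptor gene for vascular growth factors, gave 0.24 ± 0.10. The part of these markers in the result was not tested.

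The neighbours of Abcb1a on chromosome 5 followed other patterns. Abcb1b (18669), the other mouse P-glycoprotein gene, measured 5.67 in both sham hearts and 5.56, 6.48 and 5.67 with the antagonist. The high value was that of antagonist replicate 2, which also had the highest summed signal of atrial, adipocyte and mesothelial markers. A link between this value and those sums was not tested. The difference of 0.23 ± 0.34 (limma adjusted p = 0.77) became -0.05 without that array. Abcb4 (18670), a phosphatidylcholine translocase of bile formation, measured 7.17 and 7.03 in sham and 6.95, 6.99 and 7.21 with the antagonist, and these groups overlapped. The promoter windows of the P-glycoprotein genes, chr5:8566841-8567140 for Abcb1a and chr5:8797897-8798196 for Abcb1b on the plus strand, are printed to show how far a pair of genes with related products differs there. Capitals mark the same motifs as above.
Abcb1a: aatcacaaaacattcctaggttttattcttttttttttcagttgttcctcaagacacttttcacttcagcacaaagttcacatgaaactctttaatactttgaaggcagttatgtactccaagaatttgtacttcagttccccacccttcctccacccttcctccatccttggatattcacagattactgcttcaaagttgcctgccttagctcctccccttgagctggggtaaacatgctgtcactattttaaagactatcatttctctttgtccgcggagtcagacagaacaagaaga
Abcb1b: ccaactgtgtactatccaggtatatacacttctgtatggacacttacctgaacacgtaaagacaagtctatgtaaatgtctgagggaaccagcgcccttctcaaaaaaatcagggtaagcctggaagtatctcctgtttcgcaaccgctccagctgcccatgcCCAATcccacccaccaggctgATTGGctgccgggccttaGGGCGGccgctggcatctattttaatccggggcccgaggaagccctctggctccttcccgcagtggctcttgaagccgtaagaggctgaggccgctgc
Abcb1a held 0 of the motifs, with a G and C content of 40.3%. Abcb1b held CCAAT on both strands and GGGCGG, with a G and C content of 55%. Over the 45 windows of ABC genes the median was 57%, beside 52.7% for all windows.

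**Figure D3:**
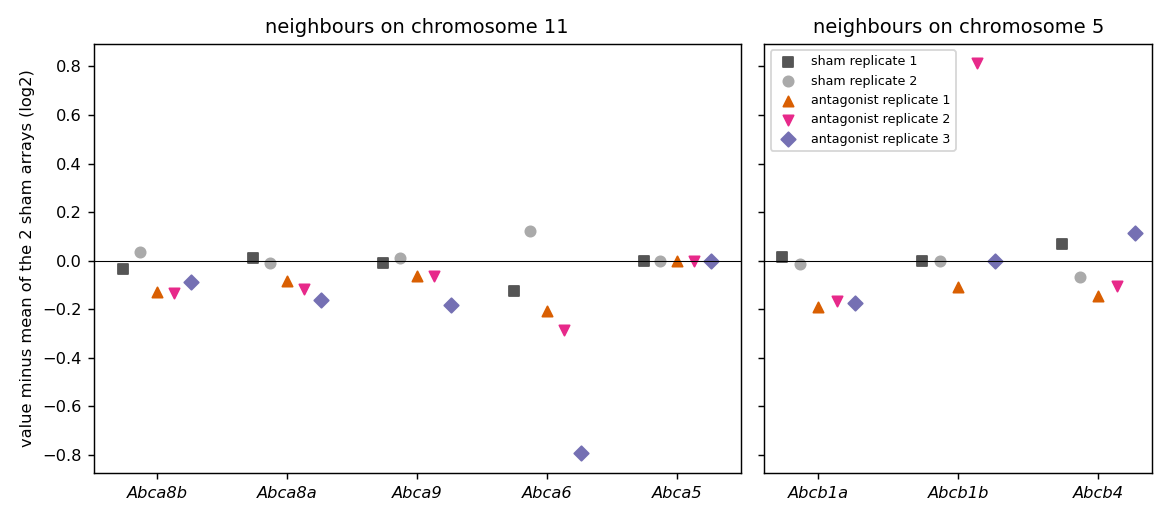
Value on each array minus the mean of the 2 sham arrays (log2) for the row of 5 genes on chromosome 11 and the 3 neighbours on chromosome 5, in gene order. Abcb1a and 4 of the row have all antagonist symbols below both sham symbols, Abca5 lies at 0 on every array, and Abcb1b is high only on antagonist replicate 2.

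The other efflux pumps had larger p-values. Abcg2 (26357), an efflux pump of endothelial and stem cells, had the same value of 6.65 on all 5 arrays. Abcc1 (17250), an exporter of glutathione conjugates and leukotriene C4, measured 7.44 and 7.27 in sham and 7.29, 7.22 and 7.26 with the antagonist, where the groups overlapped. Abcc4 and Abcc5, exporters of cyclic nucleotides, differed by 0.02 ± 0.05 and 0.06 ± 0.09. Abcc10 (224814), a broad drug exporter, measured 4.44 and 4.64 in sham and 4.38, 4.37 and 4.23 with the antagonist. Its groups did not overlap, with a difference of -0.22 ± 0.09 (limma unadjusted p = 0.079, adjusted p = 0.64). In all, 4 of the 8 tested genes of this role were higher, 3 lower and 1 equal, and Abcc2 was not tested. In the list of receptors and partners that control such pumps, Nr1i2 (the pregnane X receptor gene) was below the level filter. Ahr differed by -0.16 ± 0.09, with a gap of 0.012 between its groups. Arnt, which encodes the partner of that receptor, had the same value of 7.93 on every array. Nfe2l2, which encodes the stress factor NRF2 and was the brightest of that list, gave 0.10 ± 0.07. At an unadjusted p under 0.05 there were 0 of 5 in that list, with 2 higher and 2 lower.

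Cholesterol transporters showed steps on single sham arrays. Abca1 (11303), which loads cholesterol and phospholipid onto apolipoprotein A-I, measured 6.90 and 7.20 in sham and 7.20 on each antagonist array, so sham replicate 1 alone was low. Abcg1 (11307), which passes cholesterol to high-density lipoprotein, measured 5.12 and 5.51 in sham and 5.12 on each antagonist array, so sham replicate 2 alone was high. The differences of 0.15 ± 0.10 and -0.20 ± 0.13 (limma adjusted p = 0.64 for both) therefore each came from 1 array. Without that array both were 0. Abcg4 gave -0.15 ± 0.14 and Abca7, a phospholipid transporter, 0.10 ± 0.11, so that 2 of the 4 were higher and 2 lower. Of 12 measured genes of the liver X receptors (LXR) and sterol handling, 9 were higher and 3 lower, and 0 had an unadjusted p under 0.05. Over all tested genes 47.7% were higher and 46.3% lower. Sham replicate 1 was the lowest array for Nr1h3, Rxra, Mylip, Srebf1, Srebf2, Npc1 and Npc2, so the count of higher genes leans on that array. It was also the lowest for Rxrb, which was among the lower genes (-0.05). Nr1h3, which encodes LXR alpha, the sterol sensor that induces Abca1 and Abcg1, measured 4.93 and 5.39 in sham and 5.59, 5.53 and 5.72 with the antagonist, a difference of 0.45 ± 0.17 (limma unadjusted p = 0.058, adjusted p = 0.64). Mylip and Npc1, the brightest of that list, gave 0.17 ± 0.15 and 0.02 ± 0.07. The remaining tested genes of subfamily A were Abca2 (0.03 ± 0.03), Abca3 of lung surfactant secretion (0.05 ± 0.10), the retinal Abca4 (0.01 ± 0.01) and Abca12 of the skin barrier, which had 5.12 on all arrays.

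Sulfonylurea receptors and their channel pores went both ways. Abcc9 differed by -0.07 ± 0.04 (limma adjusted p = 0.64). Abcc8 (20927), which encodes SUR1, measured 6.38 and 6.57 in sham and 6.57, 6.61 and 6.57 with the antagonist, a difference of 0.11 ± 0.07, or 0.01 without sham replicate 1. Of the pore genes, Kcnj8, which encodes Kir6.1 of vascular muscle and pericytes, measured 8.30 and 8.43 in sham and 8.22, 8.03 and 8.04 with the antagonist. The groups did not overlap, and the difference was -0.27 ± 0.08 (limma unadjusted p = 0.037, adjusted p = 0.64). Kcnj11, which encodes Kir6.2 of heart muscle, differed by 0.05 ± 0.05 with overlapping groups. Of the 8 pericyte and smooth muscle markers, a list that holds Kcnj8, 1 was higher, 6 lower and 1 equal. Over all tested genes these shares were 47.7%, 46.3% and 6.03%. In the marker list only Kcnj8 and Myh11 had groups that did not overlap. The summed signal of that list was 3427 to 3806 in sham and 3103 to 3284 with the antagonist, groups that do not overlap. Rgs5, the brightest of that list, weighs most in this sum. It measured 11.36 and 10.97 in sham and 10.90, 10.97 and 10.97 with the antagonist, so its own groups overlapped. The mean log2 values of the list did overlap (7.45 and 7.54 in sham, 7.39, 7.47 and 7.37 with the antagonist), and its part in the values of Abcc9 and Kcnj8 was not tested.

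The 3 measured mitochondrial transporters were low on sham replicate 1. Abcb10 (56199), which acts in haem synthesis, measured 6.71 and 7.17 in sham and 7.21, 7.10 and 7.33 with the antagonist. Abcb6 (74104), a porphyrin transporter, measured 6.09 and 6.62 in sham and 6.69, 6.37 and 6.46 with the antagonist. Abcb8 (74610), an iron exporter described in mouse heart mitochondria, measured 6.18 and 6.59 in sham and 6.46, 6.41 and 6.40 with the antagonist. In each case sham replicate 1 was lowest and sham replicate 2 lay within or above the antagonist values. The differences were 0.28 ± 0.17, 0.15 ± 0.21 and 0.04 ± 0.14, and without sham replicate 1 they were 0.05, -0.12 and -0.17. Of 9 measured haem and iron-sulfur genes, 5 were higher and 4 lower. Iscu, the scaffold protein gene of iron-sulfur cluster assembly, measured 7.83 and 7.82 in sham and 7.71, 7.69 and 7.71 with the antagonist, a difference of -0.13 ± 0.01 (limma unadjusted p = 0.0012, adjusted p = 0.62). The brightest of that list, Alas1 and Fech, gave 0.13 ± 0.10 and -0.05 ± 0.05.

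In the peroxisomal subfamily all 3 measured genes were lower by small amounts. Abcd3 measured 9.18 and 9.30 in sham and 9.23, 9.20 and 9.20 with the antagonist, and Abcd4, which serves cobalamin export from lysosomes, differed by -0.08 ± 0.05. Abcd2 (26874), an importer of very long-chain acyl-CoA, had the widest range of the 3 over the arrays. It measured 6.23 and 6.09 in sham and 5.97, 6.52 and 5.70 with the antagonist, and its difference of -0.09 ± 0.28 was -0.32 without antagonist replicate 2 and 0.09 without antagonist replicate 3. The high value of antagonist replicate 2 coincides with the high adipocyte marker sum of that array, and a link between them was not tested. Of 10 tested genes of peroxisome import and beta oxidation, 5 were higher and 5 lower, with 0 at an unadjusted p under 0.05. The brightest were Cat, the catalase gene, at -0.23 ± 0.14 and Scp2, a sterol carrier and thiolase gene, at 0.07 ± 0.04.

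Ribosome-associated members were bright, and the sham arrays of Abce1, Abcf1 and Abcf3 were far apart. Abce1 measured 9.53 and 9.09 in sham and 9.25, 9.25 and 9.27 with the antagonist. The antagonist values lay between the sham values, and the difference of -0.06 ± 0.15 changed to 0.16 without sham replicate 1 and -0.28 without sham replicate 2. Abcf1 (224742), a partner of initiation factor eIF2, measured 7.48 and 7.81 in sham and 7.72, 7.69 and 7.72 with the antagonist. Abcf2 (27407) measured 7.92 and 8.01 in sham and 8.14, 8.01 and 8.01 with the antagonist. Abcf3 (27406), with a described antiviral role in mouse, measured 6.26 and 6.74 in sham and 6.90, 6.74 and 6.75 with the antagonist. Its difference of 0.30 ± 0.17 (limma adjusted p = 0.64) was the highest of the 48, yet the gap between the groups was 0.002, and the difference without sham replicate 1 was 0.06. Of 7 measured partner genes of ribosome recycling and initiation, 3 were higher and 4 lower, with 0 at an unadjusted p under 0.05. Etf1, the release factor gene, and Eif5 were the brightest, at -0.04 ± 0.08 and -0.11 ± 0.13.

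Of the dim members, Abcc12 (244562) measured 3.56 and 3.55 in sham and 3.70, 3.94 and 3.70 with the antagonist, a difference of 0.22 ± 0.09 (limma adjusted p = 0.64). The groups did not overlap, but the mean of 3.69 lies below the 3.78 of the receptor yardstick. Abcg5, Abca4 and Abcc3 were the other tested genes below it, and Abcg5 differed only on antagonist replicate 3 (3.97, against 3.61 on the others). Abcb9, a lysosomal peptide transporter, and Abcc6, whose loss causes tissue calcification, gave 0.12 ± 0.07 and -0.11 ± 0.09. Tap1 and Tap2, relatives of Abcb9 in subfamily B, load peptides for antigen presentation and carry symbols outside the rule. They gave 0.23 ± 0.15 and 0.25 ± 0.15, each highest on antagonist replicate 2. Their partner Tapbp, the brightest of that list, gave -0.01 ± 0.20 and was highest on sham replicate 2.

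How far the sham hearts were apart bears on all of these values. The sham arrays differed from each other by more than the group difference for 22 of the 38 tested ABC genes (57.9%, against 58.4% of all tested genes). For 10 genes (26.3%, against 23.8%) the difference had one sign against sham replicate 1 and the opposite sign against sham replicate 2. The median distance between the sham arrays was 0.14, beside a median group difference of 0.10 in size. Over all tested genes these medians were 0.11 and 0.07. On every antagonist array Abcb1a, Abca8a, Abca8b, Abca9, Abca6 and Abcc10 lay below both sham arrays, and Abcf3 and Abcc12 above both. These were 15.8% and 5.26% of the tested ABC genes, against 6.33% and 6.19% of all tested genes. With each array centred on its median, the share without overlap in either direction was 21.1%, against 24.7% of all tested genes.

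**Figure D4:**
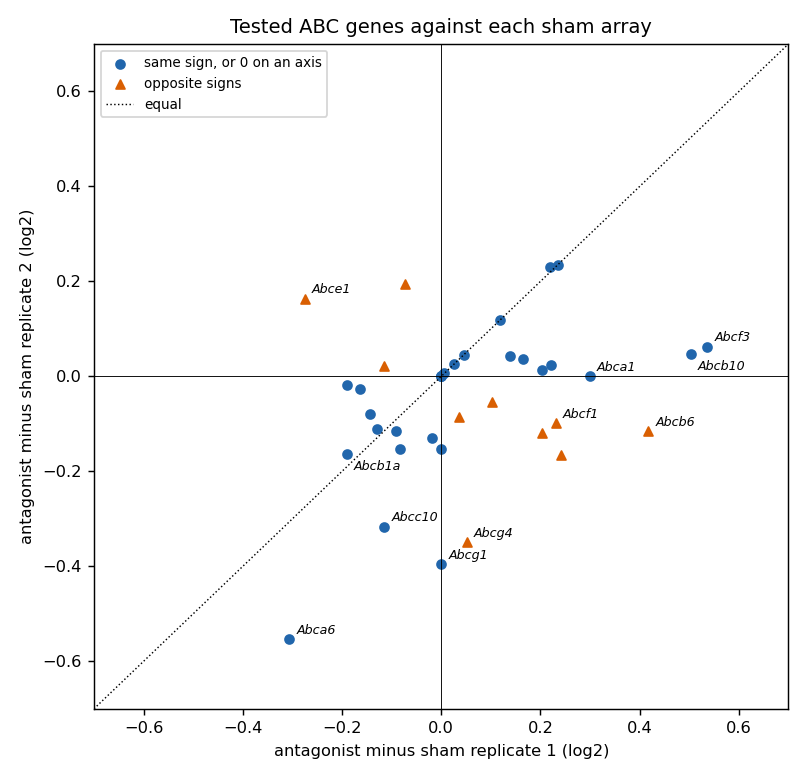
Mean of the antagonist arrays minus sham replicate 1 (horizontal) and minus sham replicate 2 (vertical), both log2, for the 38 tested ABC genes. The 10 triangles have opposite signs, with Abce1, Abcb6 and Abcg4 far from the line of equality, and Abcb1a lies near it.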

How the data were processed

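Total RNA of 5 mouse hearts was labelled from 300 ng and hybridised to Affymetrix arrays with the WT PLUS kit, per the labels' protocols. The deposited values are log2 expression made by the authors with RMA (background correction, quantile normalization, median polish), per the submitters' processing notes; its version, probe library and build: not given in the sources used here. No scanner file or detection call was used. Of 41345 probes, 23521 had a single symbol in the platform annotation, 1814 had several and 16010 were not listed. The probe with the highest mean stood for a gene. All 48 ABC genes were found by Entrez identifier in RefSeq. The test was limma's moderated test (version 3.58.1, R 4.3.3; lmFit, eBayes, no covariates), Benjamini-Hochberg adjusted over all 15294 genes at 0.05; differences are antagonist minus sham with the moderated SE, on 3 residual and 0.69 prior degrees of freedom. The adjustment takes running minima, so many genes share an adjusted p of 0.64. The script was tested on simulated data. Sequences were aligned with Biopython 1.88. The number of arrays limits precision.

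The genes, lists and alternatives were chosen with earlier results of these data known. Described with values are, per subfamily, the 3 brightest and the dimmest gene, those with unadjusted p under 0.05, without overlap, or with the 3 largest differences each way or widest ranges; of companion lists, genes under 0.05 and the 2 brightest. Other genes given were chosen after their values were seen.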

Additional observations from a re-analysis of the deposited data

How the results depend on the processing

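The 14 alternatives were: no filter or a 60th percentile filter; quantile normalization again or median centring; averaged probes; eBayes with trend, or robust; weighted arrays; a replicate block; and each array left out. In these, the count of ABC genes with an adjusted p under 0.05 stayed 0 except without a sham array, and with single arrays left out it ranged from 0 to 7 (0 to 2062 for all genes, 1310 without sham replicate 1 and 2062 without sham replicate 2). A lone sham array then stands against antagonist values that are often equal, and 4 of the 7 in each case had tied antagonist values. Abcb1a and Abce1 were among the 7 both times, Abce1 with opposite signs. ABC genes with an unadjusted p under 0.05 numbered 1 with array weights (2.63%, against 2.08% of all) and 2 to 13 with arrays left out. The 13 came without either sham array (34.2%, against 17.2% of all without sham replicate 1 and 26.4% without sham replicate 2). Genes without overlap numbered 10 to 24 with arrays left out: 50% against 42% of all without sham replicate 1, 63.2% against 52.6% without sham replicate 2, and 26.3% against 17.6% to 17.9% without an antagonist array. Genes higher with the antagonist numbered 15 to 20. The median difference ranged from -0.0087 (without sham replicate 1) to 0.016. Signs changed with arrays left out for Abcb1b (-0.054 to 0.41), Abcb4 (-0.13 to 0.023), Abcd2 (-0.32 to 0.087), Abcd3 (-0.085 to 0.035), Abce1 (-0.28 to 0.16), Abcf1 (-0.098 to 0.23), Abcg4 (-0.35 to 0.052), Abcb6 (-0.12 to 0.42), Abcb8 (-0.17 to 0.24), Abcc3 (-0.12 to 0.20), Abcc4 (-0.05 to 0.10), Abcc5 (-0.07 to 0.20) and Abca3 (-0.04 to 0.11); the cause was not tested. In the labels, same-numbered hearts share only a number. Deviations from the group means correlated at -0.11 for replicate 1 and 0.03 for replicate 2. The deviations of 2 sham arrays mirror each other, so these values cannot show whether same-numbered hearts belong together. With the replicate block, which leaves antagonist replicate 3 without a partner, 0 ABC genes passed and Abcd2 turned to 0.087. In that setting 2 ABC genes had an unadjusted limma p under 0.05 (5.26%, against 4.93% of all tested genes). Median centring also gave 2 (5.26%, against 4.92%), so in both settings the share was near that of all genes. Abcf3 lost its gap when arrays were centred. With 2 and 3 hearts, differences of this size could not be told from the spread between hearts after adjustment.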
